A study of Zea mays with 6 samples.

Results

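The genes of starch synthesis and breakdown were followed in maize leaves, over growth from T1 to T2 and under drought stress. Members were the probe sets whose platform gene symbol, an NCBI synonym of it, or a gene title in the study's table of responsive genes named an ADP-glucose pyrophosphorylase, the ADP-glucose transporter brittle1, a starch synthase, a starch branching enzyme, a debranching enzyme or an amylase. The rule gave 24 probe sets among 17621, after 4 matches that belong to other genes were left out. They comprised 7 for ADP-glucose pyrophosphorylase, 1 for brittle1, 7 for starch synthases, 3 for branching enzymes, 3 for debranching enzymes and 3 for beta-amylases. No probe set was matched by name to an alpha-amylase or to su1, the isoamylase-type debranching enzyme of the sugary1 locus, so that su1 was not analysed here.

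Starch is made in plastids from ADP-glucose, which ADP-glucose pyrophosphorylase supplies in the committed step. Starch synthases then lengthen the glucan chains, branching enzymes add side branches and debranching enzymes trim them into an order that crystallizes. In leaves this starch is transient, built up by day and degraded by night, when beta-amylases release maltose from the chain ends. Maize kernels hold a long-lived store made partly by other isoforms, and the classical mutants shrunken2 (sh2), brittle2 (bt2), waxy1 (wx1), amylose extender1 (ae1) and sugary1 were found in kernels.

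Leaf RNA was hybridized to 6 Affymetrix maize arrays, with 1 array for each of 2 varieties in each of 3 conditions. DKC6575 is a hybrid carrying the MON810 event, in which the cauliflower mosaic virus 35S promoter drives a synthetic CryIAb insecticidal protein gene, and Tietar is its near-isogenic variety without it. All plants grew in the field with full irrigation up to the six-leaf stage. T1 control leaves came from the eight-leaf stage and T2 control leaves from silking, both irrigated to 100% of field capacity, while T2 drought leaves came from silking in a plot that received 0% after the six-leaf stage. Each variety was represented by 1 transgenic event or its isogenic partner, each irrigation level by its own plot, and each group by 1 array, so plot, plant and array differences cannot be told apart from the condition. The comparison of T2 drought with T2 control asked what drought stress changed, that of T2 with T1 control what growth to silking changed, and that of the varieties whether the transgenic hybrid differed. Because leaf tissue was profiled in bulk, fewer cells of a type and less RNA per cell cannot be told apart.

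The deposited values were intensities on a linear scale, here called signals, with array medians from 118 to 141. Signals under 64 made up 39.6% to 41.6% of each array, and a probe set was counted as brighter where its mean log2 signal was at least 6, the log2 of 64. By that rule 10383 of all probe sets and 12 of the 24 members were brighter. Leaf markers of the C4 cycle and photosynthesis were bright in 12 of 13 probe sets, with summed signals from 117297 to 199454. All 11 probe sets for endosperm markers (zeins, floury2 and opaque2) lay under 64 on every array, with sums from 30.2 to 98.3. Some genes, such as the dikinase gene pdk1 and the zein gene zp27, entered these lists by several probe sets. The counts and sums are therefore not of separate genes. Of 20 pollen markers, 5 reached a signal of 64 at T1 in either variety and 17 to 19 at T2. This list was matched by name, and the brightest at T1 were the profilins prf5 and PRO4. Their signals were high in all conditions (6168 to 7817 and 4664 to 6409), so the T1 count does not show pollen RNA in T1 leaves. Most of the pollen markers had a title in the table the authors selected on these arrays, so these counts are not independent of that selection.

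**Figure D1:**
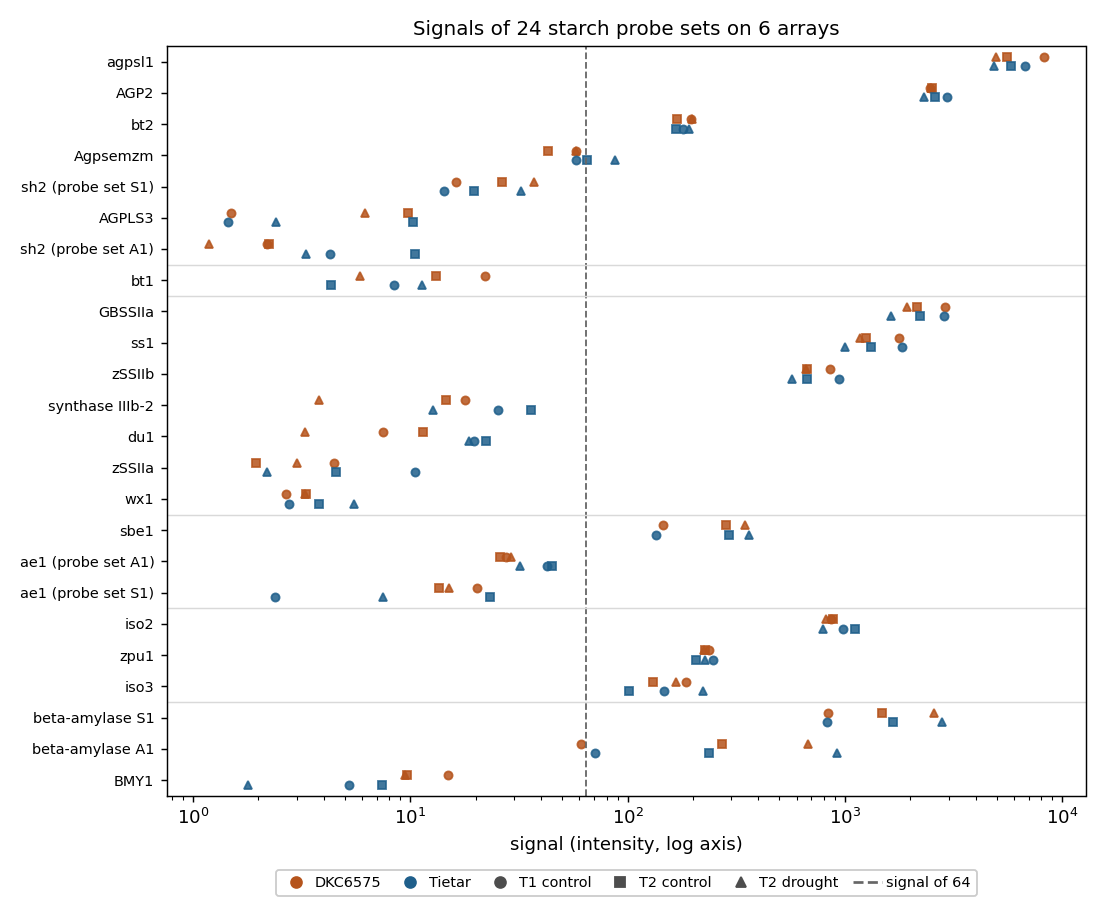
Signals of the 24 starch probe sets (x axis, intensity on a log axis) on each of the 6 arrays, ordered by enzyme role and brightness, with colour for variety and symbol for condition; the dashed line marks a signal of 64. The brighter members lie above the line, apart from beta-amylase A1 at 61.1 on the DKC6575 T1 array, while sh2, wx1, ae1, du1, bt1 and BMY1 stay below it on all arrays.

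The classical kernel genes were represented unevenly in these leaves. Of the 7 probe sets for sh2, bt2, wx1, ae1 and brittle1 (bt1), bt2 alone was brighter. The bt2 probe set, for the small subunit of the endosperm pyrophosphorylase, gave signals of 196 at T1, 169 at T2 and 198 under drought in DKC6575. In Tietar its signals were 180 at T1, 167 at T2 and 191 under drought. The T2 controls were the lowest arrays in both varieties, and the drought arrays lay close to the T1 arrays. For this order, and for that of sh2 below, the share of all probe sets ordered alike in both varieties was not counted. The bt2 log2 difference was 0.21 for drought (SE 0.15, adjusted p = 0.62) and -0.17 for development (SE 0.15, adjusted p = 0.58), and neither passed the test described below.

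The gene sh2 encodes the large subunit that pairs with bt2. The brighter of its 2 probe sets, with S1 in its name, read 16.2, 26.5 and 37.0 at T1 control, T2 control and T2 drought in DKC6575, and 14.2, 19.6 and 32.4 in Tietar. The order of the conditions was the same in both varieties, but every signal lay under 64. The other sh2 probe set, with A1 in its name, ran from 1.18 to 10.5 over the 6 arrays and was lowest under drought in both varieties. The probe sets for the same gene correlated at r = -0.50 over the 6 arrays, so that no direction was read for sh2.

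For wx1, the granule-bound starch synthase that makes amylose in kernels and pollen, signals ran from 2.69 to 5.53, with the highest value in Tietar under drought. The ae1 probe set A1, for branching enzyme IIb, ran from 25.9 to 45.0 and the other, S1, from 2.39 to 23.3. These probe sets correlated at r = -0.35. The bt1 probe set, for the carrier that brings ADP-glucose into kernel amyloplasts, ran from 4.30 to 22.0. None of these passed a test, and at signals this low no direction was read from their differences.

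Over the 6 arrays, and as a description only, the brighter member with the most similar profile was iso3 for bt2 (r = 0.85) and beta-amylase A1 for the S1 probe set of sh2 (r = 0.95) and for wx1 (r = 0.80). For the A1 probe sets it was iso2, at r = 0.83 for sh2 and 0.80 for ae1, and for the S1 probe set of ae1 it was sbe1 at r = 0.39. The arrays fall into 3 conditions of 2 varieties, so these values largely compare 3 pairs of points. Each is the largest of 11 correlations for bt2 and of 12 for the others. All but bt2 were dim, so no shared profile was read from these values.

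Changes shared by both varieties were tested with limma over all 17621 probe sets, with variety and condition as factors and an intensity trend in the prior variance, at a Benjamini-Hochberg adjusted p of 0.05. The varieties stood in as replicates, which left 2 residual degrees of freedom. The spread behind the p-values was how unevenly the varieties differed over the 3 conditions. It was moderated toward a prior drawn from all probe sets, with a median of 5.73 prior degrees of freedom. It does not measure the spread between plants of a group. Under drought 2 of the 24 members rose and 0 fell, against a background of 0.550% of all probe sets called higher and 0.482% called lower. Both were beta-amylases, and both were found by a title in a table the authors selected on these arrays, so that their calls are not independent of how they were found. Of the 21 members found by symbol, 0 passed this test for drought, and 3 had an unadjusted p under 0.05. At an unadjusted p of 0.05, 6 of the 24 members passed, as did 2371 of all 17621 probe sets. Without the intensity trend limma called 0 of all probe sets, with 1602 at an unadjusted p under 0.05.

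The probe set titled beta-amylase with A1 in its name, here called beta-amylase A1, gave signals of 61.1 at T1, 272 at T2 and 673 under drought in DKC6575. In Tietar it gave 70.5 at T1, 237 at T2 and 924 under drought. The conditions did not overlap, with 2 arrays in each, and the order was the same in both varieties. Here and below, the share of all probe sets whose conditions lay apart in this way was not counted. The drought signal was 2.47 times the T2 control signal in DKC6575 and 3.89 times in Tietar. The shared log2 difference was 1.63 (SE 0.18, adjusted p = 0.018).

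The other, with S1 in its name and here called beta-amylase S1, started from a higher signal and moved in the same order. Its signals were 834, 1480 and 2558 at T1 control, T2 control and T2 drought in DKC6575, and 828, 1669 and 2802 in Tietar. Again each condition lay clear of the others. Drought signals were 1.73 times the control in DKC6575 and 1.68 times in Tietar, and the shared log2 difference was 0.77 (SE 0.09, adjusted p = 0.018). The third beta-amylase probe set, BMY1, ran from 1.80 to 14.9, under 64 on all arrays, and did not pass (log2 difference -1.04, SE 0.86, adjusted p = 0.68).

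Drought values of the debranching enzymes were mixed. The signal of iso3, an isoamylase-type enzyme that in Arabidopsis acts in starch breakdown, was 186, 131 and 167 at T1 control, T2 control and T2 drought in DKC6575, and 146, 102 and 221 in Tietar. Drought lay above the T2 control in both varieties, by 0.35 on the log2 scale in DKC6575 and by 1.12 in Tietar, and it exceeded the T1 control in Tietar alone. The shared difference of 0.73 (SE 0.23, adjusted p = 0.23) did not pass. Without the DKC6575 drought array the difference was 1.12, read from Tietar alone. For iso2, an isoamylase-type subunit that partners the sugary1 enzyme, the signals were 860, 880 and 822 in DKC6575 and 983, 1108 and 793 in Tietar, with a shared drought difference of -0.29 (SE 0.12, adjusted p = 0.33). For zpu1, the pullulanase-type enzyme, the 6 signals spanned only 207 to 247, and the drought difference was 0.05 (SE 0.14, 95% interval from -0.27 to 0.38, adjusted p = 0.92).

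Of the 14 probe sets for pyrophosphorylases and starch synthases, 0 passed for drought in limma. An unadjusted p under 0.05 was found for 2 of them and for 2371 of all 17621 probe sets. The log2 difference was negative for 10 of the 14 and for 5 of the 6 brighter ones, beside 47.4% of all probe sets and 44.0% of brighter ones. For GBSSIIa, the granule-bound synthase of leaves, it was -0.30 (SE 0.10, adjusted p = 0.27), for ss1, a soluble synthase that adds short chains, it was -0.24 (SE 0.11, adjusted p = 0.39), and for agpsl1, a small subunit of the leaf pyrophosphorylase, it was -0.22 (SE 0.12, adjusted p = 0.49). The 6 brighter probe sets of both families had a median drought difference of -0.05 in DKC6575 and -0.25 in Tietar, where all 10383 brighter probe sets had 0.02 and 0.04. Of the 6, all but bt2 had a mean log2 of at least 9. Over the 4638 probe sets that bright, the shared drought difference had a median of -0.002 and was negative in 50.7%. The branching enzyme sbe1, which transfers longer chains, had a drought difference of 0.31 (SE 0.14, adjusted p = 0.39).

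**Figure D2:**
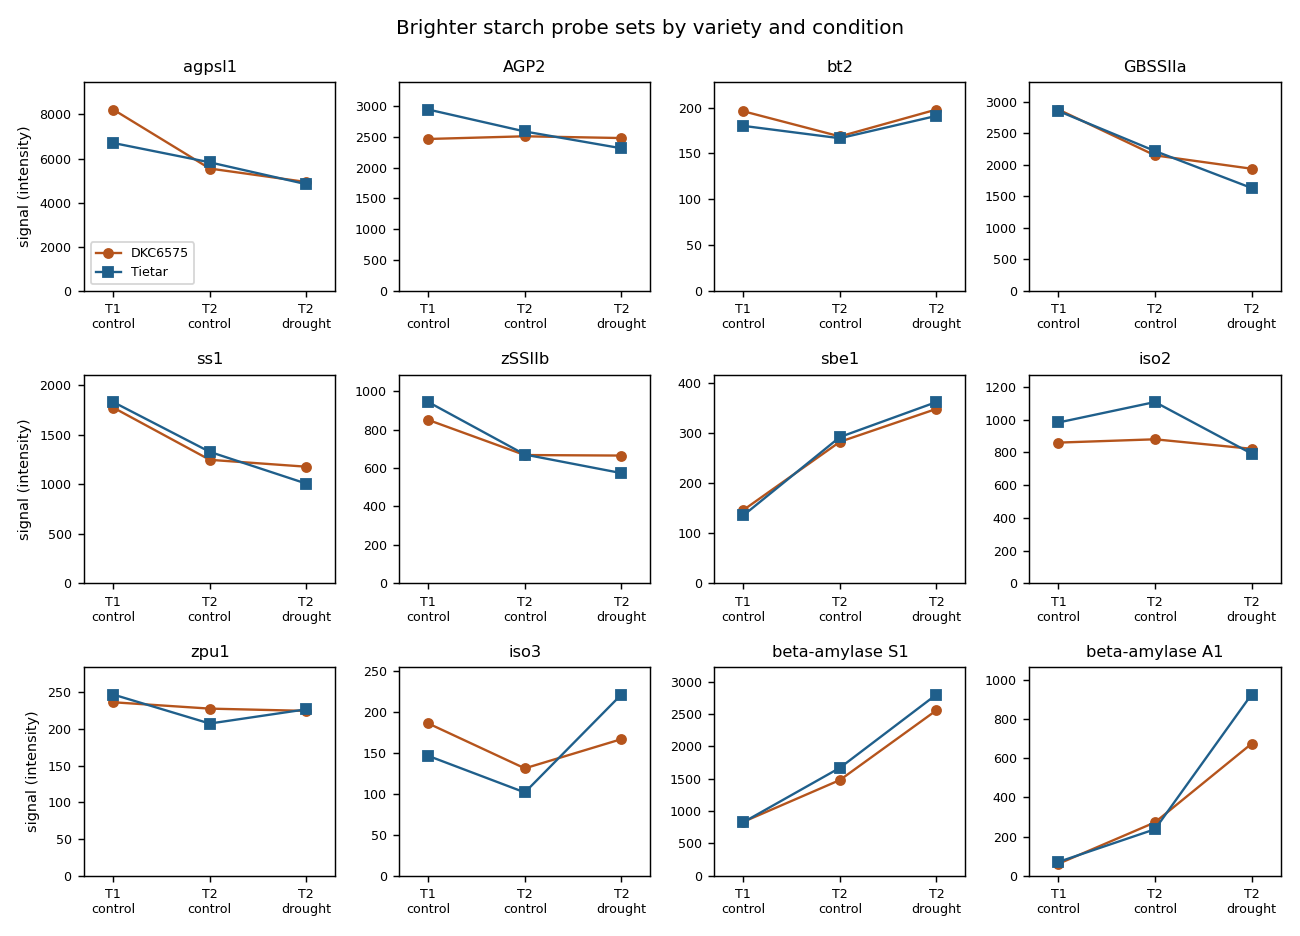
Signals of the 12 brighter starch probe sets (y axis, intensity from 0) at T1 control, T2 control and T2 drought, with 1 array per point and lines joining the arrays of a variety. Both beta-amylases and sbe1 were lowest at T1 and highest under drought in each variety, whereas GBSSIIa, ss1 and agpsl1 were highest at T1.

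From T1 to T2 without drought, 3 of the 24 members rose and 1 fell, against backgrounds of 6.23% of all probe sets higher and 3.37% lower. Those that rose were both brighter beta-amylases and sbe1, and the one that fell was ss1. Both beta-amylases were members only through a title in the authors' table, whereas sbe1, which also had a title, and ss1 were found by symbol. At an unadjusted p of 0.05, 8 of the 24 members passed, as did 4238 of all 17621 probe sets. Without the trend limma called 0 of all probe sets, with 2987 at an unadjusted p under 0.05. Without the trend but over the brighter probe sets alone it called 834 higher and 375 lower, and both beta-amylases and sbe1 were among them (adjusted p = 0.014, 0.021 and 0.018). Of the 20 pollen markers, 16 rose between T1 and T2 and 0 under drought. Each that rose had a title in the authors' table, so this count is not independent of how the markers were found. The part of pollen in the T1 to T2 differences was not tested.

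The T2 control signal of beta-amylase A1 was 4.46 times its T1 signal in DKC6575 and 3.36 times in Tietar, with the DKC6575 T1 signal just under 64. The shared log2 difference was 1.95 (SE 0.18, adjusted p = 0.0017). For beta-amylase S1 the ratios were 1.78 and 2.02, and the shared difference was 0.92 (SE 0.09, adjusted p = 0.0026). Set against T1, the drought signal of beta-amylase A1 was higher by 3.46 in DKC6575 and 3.71 in Tietar on the log2 scale, and that of beta-amylase S1 by 1.62 and 1.76. Development and drought share the T2 control arrays, so these differences are not independent of each other.

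The sbe1 signal was 146 at T1, 283 at T2 and 348 under drought in DKC6575, and 136, 292 and 362 in Tietar. The T1 arrays of both varieties lay below all the T2 arrays. The shared T1 to T2 difference of 1.03 (SE 0.14, adjusted p = 0.0050) was no longer past the test without the DKC6575 T1 array (adjusted p = 0.054) or without the Tietar T1 array (adjusted p = 0.065). The other branching enzyme probe sets, both for ae1, differed by -0.01 (SE 0.41) and 1.35 (SE 0.95) at dim signals and did not pass.

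Among the starch synthases, ss1 fell from 1772 at T1 to 1245 at T2 in DKC6575 and from 1828 to 1325 in Tietar, with 1176 and 1005 under drought. The groups T1 and T2 did not overlap. The shared log2 difference was -0.49 (SE 0.11, adjusted p = 0.030), and it did not pass without the DKC6575 T1, the Tietar T1 or the DKC6575 T2 control array (adjusted p = 0.18, 0.28 and 0.088). GBSSIIa gave 2878 and 2854 at T1, 2150 and 2220 at T2, and 1938 and 1633 under drought in DKC6575 and Tietar, with a T1 to T2 difference of -0.39 (SE 0.10, adjusted p = 0.057). For zSSIIb, a soluble synthase, the signals were 851 and 944 at T1, 668 and 671 at T2, and 665 and 574 under drought, with a difference of -0.42 (SE 0.12, adjusted p = 0.063). Neither passed the test. Both had T1 signals above all T2 signals in each variety, and the share of all probe sets that did so was not counted.

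None of the 7 pyrophosphorylase probe sets passed for development in limma. An unadjusted p under 0.05 was found for 2 of them and for 4238 of all 17621 probe sets. The differences were negative for the 3 brighter ones and positive for 3 of the 4 dim ones. The signal of agpsl1 was 8225 at T1, 5547 at T2 and 4935 under drought in DKC6575, and 6708, 5829 and 4836 in Tietar, with a T1 to T2 difference of -0.39 (SE 0.12, adjusted p = 0.090). That of AGP2, another pyrophosphorylase gene, was 2463, 2507 and 2478 in DKC6575 and 2941, 2585 and 2312 in Tietar, with a difference of -0.08 (SE 0.11, 95% interval from -0.34 to 0.17, adjusted p = 0.72). In DKC6575 the AGP2 signals were nearly level, whereas in Tietar they were lower at each condition in turn; this contrast could not be tested with 1 array per group. Over the 6 brighter pyrophosphorylase and synthase probe sets, 5 were lower at T2 than at T1 in DKC6575 and 6 in Tietar, where 43.6% and 45.6% of all brighter probe sets were lower. Their median differences were -0.38 in DKC6575 and -0.28 in Tietar, beside 0.06 and 0.04 for all brighter probe sets. All of them but bt2 had a mean log2 of at least 9. Over the 4638 probe sets that bright, the shared T1 to T2 difference had a median of -0.004 and was negative in 50.7%. Of the 13 leaf photosynthesis markers 1 fell from T1 to T2 and 0 rose, and their summed signals went from 199454 to 149576 in DKC6575 and from 197351 to 184153 in Tietar; their part in the T1 to T2 differences was not tested.

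The number of members called for development depended on which scaling of the arrays was used. The array medians of T2 controls lay 0.13 above those of T1 on the log2 scale, and when each array was centred on its median 7 members passed for development. Added to the other 4 were agpsl1 (-0.51, adjusted p = 0.043), zSSIIb (-0.55, adjusted p = 0.023) and GBSSIIa (-0.52, adjusted p = 0.025), all lower at T2. The split of all calls moved from 1098 higher and 593 lower to 776 higher and 1126 lower under median centring. Under quantile normalization the same 4 members passed as without scaling, with 868 of all probe sets higher and 594 lower.

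The debranching enzymes did not pass for development, with differences of 0.10 (SE 0.12) for iso2, -0.15 (SE 0.14) for zpu1 and -0.51 (SE 0.23, adjusted p = 0.22) for iso3. The remaining probe sets were dim. Signals of AGPLS3, a large subunit of the pyrophosphorylase, were 1.5 and 1.45 at T1, 9.76 and 10.3 at T2, and 6.16 and 2.41 under drought in DKC6575 and Tietar, and the T1 to T2 difference did not pass (adjusted p = 0.13). Agpsemzm, a small subunit, ran from 43.0 to 87.2, du1, the synthase III of the dull1 mutant, from 3.28 to 22.3, zSSIIa from 1.94 to 10.5, and the probe set titled starch synthase IIIb-2 precursor from 3.79 to 35.8. For starch synthase IIIb-2 precursor the drought difference was -1.72 (SE 0.61, adjusted p = 0.28), with a lower signal under drought in both varieties.

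**Figure D3:**
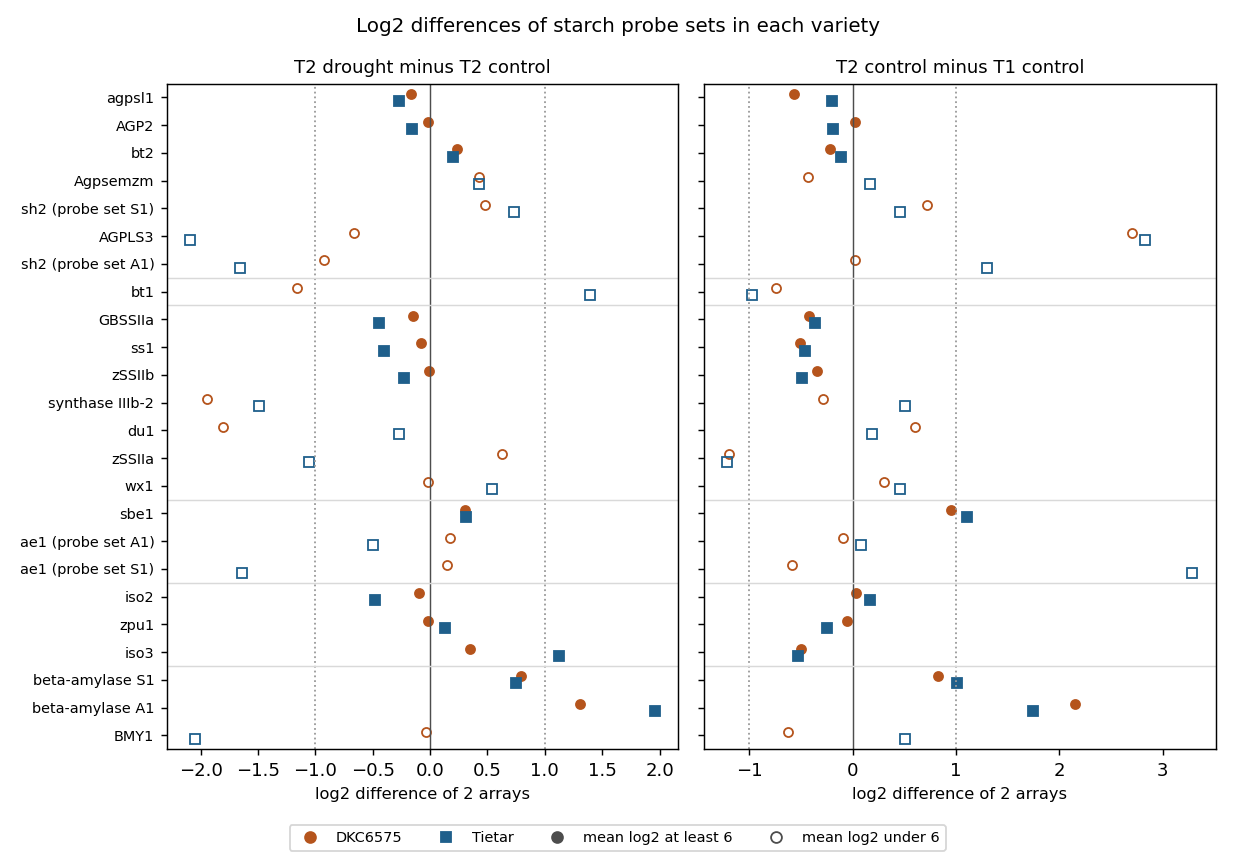
Log2 differences of the 24 starch probe sets between 2 arrays of a variety (x axis), for T2 drought minus T2 control and T2 control minus T1 control, with filled symbols for brighter members, open symbols for dim ones and dotted lines at 2-fold. Filled symbols past a dotted line are beta-amylase A1 in both panels, iso3 under drought in Tietar, and beta-amylase S1 and sbe1 for development in Tietar.

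Counted at 2-fold within a variety, which allows no test, 4 of 24 members differed under drought in DKC6575 and 9 in Tietar, where 14.0% and 19.3% of all probe sets did. Among the brighter members these counts were 1 of 12 in DKC6575 and 2 of 12 in Tietar, beside 1.24% and 4.21% of brighter probe sets. For development 3 of 24 in DKC6575 and 7 of 24 in Tietar differed 2-fold, beside 17.7% and 19.8% of all, and of the brighter members 1 of 12 and 3 of 12 did, beside 3.21% and 4.77%. Each brighter member past 2-fold, namely both beta-amylases, iso3 and sbe1, had a title in the table the authors selected on these arrays, so nothing is read from these shares. Most of the counts over all 24 came from dim probe sets, for which 2-fold differences were frequent throughout the arrays. The difference in drought response between the varieties, Tietar minus DKC6575, ran from -0.38 to 0.77 over the 12 brighter members and was highest for iso3. Its SD over these members was 0.37, beside 0.42 over all brighter probe sets, and for development the SDs were 0.21 and 0.38.

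Between the varieties 0 of the 24 members passed, against a background of 0.0397% of all probe sets higher in Tietar and 0.0114% lower. At an unadjusted p of 0.05, 2 members and 1057 of all 17621 probe sets passed in limma. The 2 members were du1 (1.62) and starch synthase IIIb-2 precursor (1.18), both dim and higher in Tietar. Without the trend the adjusted count was also 0. For the 12 brighter members the difference lay between -0.10 and 0.16 on the log2 scale, and for beta-amylase A1 it was 0.16 (95% interval from -0.18 to 0.50). Within a condition 0 of the 12 brighter members differed 2-fold between the varieties, beside 0.876% of brighter probe sets at T1, 1.44% in the T2 control and 1.10% under drought. Over all 24 members the counts were 5, 4 and 6, beside 15.3%, 17.4% and 13.1% of all probe sets.

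The neighbouring steps of sugar-phosphate metabolism were described from a list of 7 probe sets, of which 6 were brighter. For drought 0 of the 7 rose and 1 fell, and for development 0 rose and 2 fell, where 0.482% and 3.37% of all probe sets were called lower. The one that fell in both was titled phosphoglucomutase 2, an enzyme that interconverts glucose 1-phosphate and glucose 6-phosphate. Its signals were 5582, 4103 and 2492 at T1 control, T2 control and T2 drought in DKC6575, and 6346, 4606 and 2236 in Tietar, each condition clear of the others. The shared log2 difference was -0.88 for drought (SE 0.11, adjusted p = 0.021) and -0.45 for development (SE 0.11, adjusted p = 0.049). Without the DKC6575 T1 or the Tietar T1 array the drought call was lost (adjusted p = 0.051 and 0.053), as was the development call (adjusted p = 0.22 and 0.42), which was also lost without the DKC6575 T2 control array (adjusted p = 0.11).

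The glucose-6-phosphate/phosphate translocator 2, which in other plants carries glucose 6-phosphate into plastids, fell from T1 to T2 by 1.39 on the log2 scale (SE 0.24, adjusted p = 0.012), a call lost without the Tietar T1 array (adjusted p = 0.13). Its signals were 1303, 733 and 306 in DKC6575 and 2250, 582 and 468 in Tietar, lowest under drought in both. The drought difference was -1.26 in DKC6575 and -0.31 in Tietar, and the shared value of -0.79 (SE 0.24, adjusted p = 0.21) did not pass. Both were found by a title in the authors' table and so were not chosen independently. A dim probe set titled sucrose-phosphatase, with signals from 18.4 to 45.3, had a drought difference of -0.73 (SE 0.42, adjusted p = 0.52) and did not pass. The remaining list members, for glucose-6-phosphate isomerase (phi1), sucrose-phosphate synthase (sps1), a second sucrose-phosphatase (spp1) and fructose-1,6-bisphosphatase, had drought differences between -0.13 and 0.05 and development differences between -0.39 and -0.24, and did not pass.

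**Figure D4:**
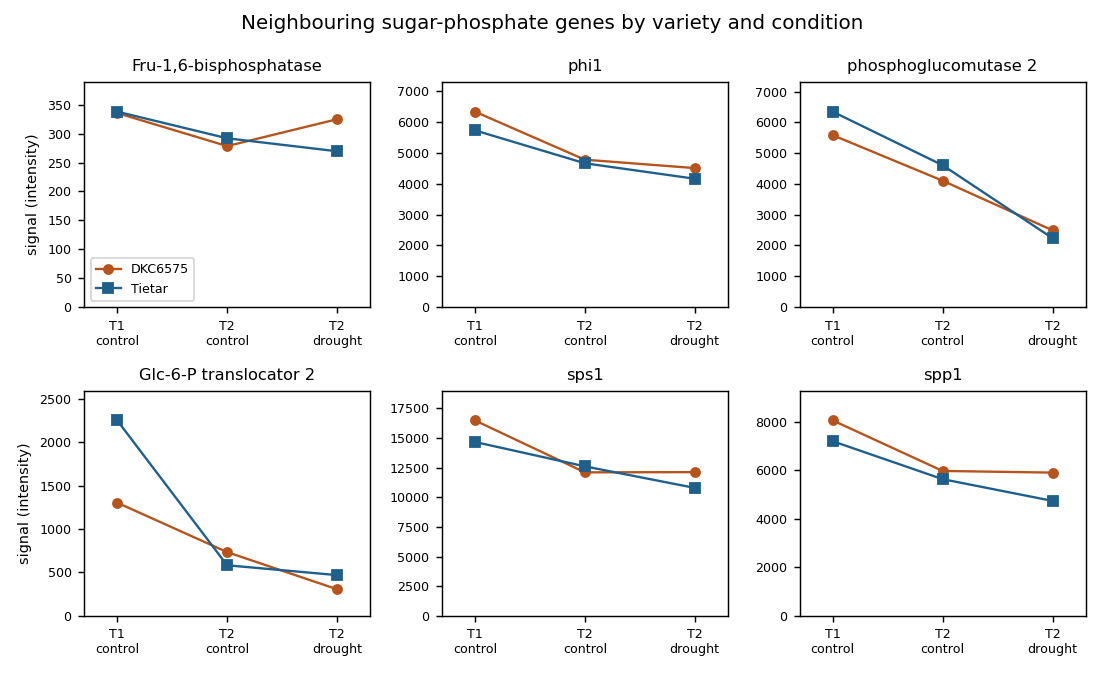
Signals of the 6 brighter probe sets of neighbouring sugar-phosphate steps (y axis, intensity from 0) at T1 control, T2 control and T2 drought, with 1 array per point and lines joining the arrays of a variety. Phosphoglucomutase 2 and the glucose-6-phosphate translocator 2 (Glc-6-P translocator 2) were lowest under drought in both varieties.

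Several array measures moved with the conditions. The 18 spiked control probe sets had median log2 signals of 10.64 and 10.79 at T1, 10.49 and 10.47 in the T2 control, and 10.20 and 10.23 under drought in DKC6575 and Tietar. The log2 ratio of a 3-prime to a 5-prime actin probe set was between 4.57 and 4.67 on the control arrays, and 4.28 and 4.25 under drought. The 3-prime probe set was thus far brighter than the 5-prime one on every array, and what this means for RNA quality was not tested. Summed signals of the leaf photosynthesis markers were 149576 and 184153 in the T2 control and 128879 and 117297 under drought. The part of any of these in the drought differences was not tested.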

How the data were processed

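Leaf RNA of 2 varieties in 3 conditions was measured on 6 Affymetrix maize arrays. The deposited values are intensities, 1 per probe set and array. The methods name RMA and Partek Genomics Suite 6.5, but the values are not logarithms and share a 2% trimmed mean (500.2 to 500.3 over the arrays), so which algorithm made them is unsettled; no reads or probe-level values were used here, and the number of arrays limits the precision. Log2 of each value was taken, with no further scaling. Of 17734 probe sets, 113 controls were left out.

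Samples were grouped by GEO's labels. Gene names came from the platform annotation (1 symbol for 1452 probe sets, of which 1377 matched the B73 gene table) and from titles in a shortened copy of the authors' table (2000). Of the members, 21 were found by symbol and 3 by title alone. The authors' fold changes and p-values in that table were not used. Members and lists, and the use of an intensity trend, were chosen with earlier results of these data known. Names printed are the 5 classical genes, members past a test or 2-fold where brighter, and the brightest of each role; other members were named to account for all 24.

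The effects of drought, development and variety were tested in R 4.3.3 with limma 3.58.1 (terms for variety and condition, an intensity trend, Benjamini-Hochberg over 17621 probe sets), after the script was tested on simulated data. Differences within a variety compare 2 arrays and have no test. Alternatives were no trend, a brightness filter, median centring, quantile normalization, a floor at 64, 1 probe set per gene, symbols only, no variety term, each array left out, and other fold thresholds or baselines. Python 3.11.15, pandas 2.3.3 and matplotlib 3.10.9 were used for tables and plots.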

Additional observations from a re-analysis of the deposited data

Results flagged for a closer look

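For AGP2 the T1 to T2 difference pointed opposite ways in the varieties, with -0.19 in Tietar and 0.03 in DKC6575 on the log2 scale, a gap of -0.21 (Tietar minus DKC6575). For zpu1 the drought difference was 0.13 in Tietar and -0.02 in DKC6575, a gap of 0.15. These differences were not tested, since each group had 1 array. Both are smaller than the SD of the same gap over all brighter probe sets, 0.38 for development and 0.42 for drought.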

How the results depend on the processing

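The drought calls were made only with the intensity trend in limma's prior variance, and the development calls of both beta-amylases and sbe1 also without it over the brighter probe sets. For drought the 2 members called became 0 with no trend, with the brightness filter and no trend, with signals floored at 64, or with members by symbol only, and 2 to 3 with each array left out. For development the number of members called, 4, became 0 with no trend and 0 with the floor at 64, 3 with the brightness filter and no trend, 2 with symbols only, 7 with median centring, and 2 to 6 with each array left out; without either T1 array the beta-amylases alone passed. Without the Tietar T2 control array the development difference was -0.50 for agpsl1 and -0.48 for GBSSIIa. Each fit with an array left out kept 1 array of that condition, so no replicate of it entered the p-values behind these counts. For variety the count was 0 under every alternative run.

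Of the 14 alternatives several, such as those on the trend, change the test and not the difference. Over them, for beta-amylase A1 the drought difference ran from 1.37 to 1.90, with adjusted p up to 0.43. Its development difference ran from 1.69 to 2.22, with adjusted p up to 0.22. For beta-amylase S1 these ran from 0.68 to 0.82 and from 0.79 to 1.00. The drought calls of both were lost in 3 of 14 and the development calls in 2 of 14. The sbe1 call was lost in 4 and the ss1 call in 6, with adjusted p up to 0.28. The calls of phosphoglucomutase 2 were lost in 5 of 14 for drought (without either T1 array among them) and in 7 for development, and that of the glucose-6-phosphate/phosphate translocator 2 in 3.

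The 4 members at 2-fold under drought in DKC6575 became 8 at 1.5-fold, 2 at 3-fold, 1 with the filter, 1 with the floor and 2 by symbol only. The 9 in Tietar became 5 at 3-fold, 2 with the filter, 2 with the floor and 4 against the mean of both T2 controls. For development the 3 in DKC6575 became 9 at 1.5-fold, 1 with the filter and 1 with the floor, and the 7 in Tietar 3 at 3-fold, 3 with the filter and 3 with the floor. The causes of these changes were not tested. The labels carry no replicate numbers; the variety term sets drought and development within each variety, and without it the counts stayed at 2 and 4. Signals under 64 limit what 12 of the 24 members can show.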
